A study of Mus musculus with 6 samples.

Results

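Histone cluster genes encode the core histones H2A, H2B, H3 and H4 and the linker histone H1, and most of them lie close together in a few clusters. Every gene symbol of the count files that starts with Hist and a cluster number was taken where its counts summed to at least 10 over the 6 libraries, whatever its difference between genotypes. This gave 68 of 70 such symbols, out of 34590 symbols in all: 6 H1, 18 H2A, 19 H2B, 12 H3 and 13 H4 genes. By cluster, 55 belonged to Hist1, 9 to Hist2, 3 to Hist3 and 1 to Hist4, which lie on mouse chromosomes 13, 3, 11 and 6. The member nearest to the limit was Hist1h1t, the testis form of H1, with 17 counts in all (2, 1 and 7 in wild type replicates 1, 2 and 3, and 1, 2 and 4 in knockout replicates 1, 2 and 3). Just outside it were Hist1h2aa with 2 counts and Hist2h2aa1 with 0, whose coding sequence is 100% identical to that of the member Hist2h2aa2.

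The libraries came from skin biopsies of 6 C57BL/6 mice, 3 Tnip1+/+ (wild type) and 3 Tnip1-/- (knockout). Imiquimod, a Toll-like receptor 7 agonist used to induce psoriasis-like inflammation, had been applied to the skin of all 6 mice for 2 days. Tnip1 encodes a ubiquitin-binding protein that works with A20 to restrain NF-kB signalling. The question addressed here was whether histone genes differ by Tnip1 genotype under this treatment. Age, sex, litter and the deleted part of Tnip1 are not given in the labels, and untreated skin was not analysed here. The submitters' sample codes contain IMQ in all 3 wild type libraries and NORM in all 3 knockout libraries, while the titles and the treatment field give imiquimod for all 6. What these letters mark is not given, and it cannot be told apart from genotype.

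Gene counts per library were 24701074 to 31005554 in wild type and 19529970 to 25864730 in knockout skin. Levels are given as CPM, counts scaled to TMM-adjusted library size, at which 3 counts stand for 0.09 to 0.157 CPM. Tnip1 was 28.1, 25.1 and 26.0 CPM in wild type replicates 1, 2 and 3, against 2.03, 1.57 and 1.83 CPM in knockout replicates 1, 2 and 3, so the knockout libraries were all low (log2 difference -3.87, SE 0.16, adjusted p = 5.87e-05). Every adjusted p comes from edgeR's quasi-likelihood test, adjusted over all tested genes by Benjamini and Hochberg's method. As a check of the tissue label, keratinocyte markers were high in every library, and their sum also differed between genotypes, at 16000, 9880 and 12700 CPM in wild type, against 23900, 25900 and 28200 CPM in knockout skin. Of these 8 markers 4 rose: Krt14 (2.54 on the log2 scale), Krt1 (1.34), Krt5 (1.19) and Perp (0.77). Krt10 fell (-0.95), and Dsp (0.44), Trp63 (0.07) and Dsg1a (-0.39) were not called. Markers of other cell types differed as well: 9 of 10 skeletal muscle markers fell in knockout skin (summed level 9950 to 17600 CPM in wild type, against 3270 to 4840 CPM in knockout), as did 3 of 8 adipocyte markers (2100 to 3980 against 99.8 to 1340 CPM) and 3 of 7 tested sebaceous gland markers (3210 to 5900 against 931 to 1950 CPM). In contrast, 7 of 7 tested neutrophil markers rose (11.7 to 19.3 against 95.5 to 168 CPM), and 5 of 6 erythroid markers rose (341 to 600 against 779 to 1530 CPM). In bulk skin, fewer cells of a type and less RNA per cell cannot be told apart. Wild type replicate 3 stood apart from the other wild type libraries. Its hair follicle matrix and shaft markers summed to 65.8 CPM, against 5.34 and 3.09 CPM in wild type replicates 1 and 2 and 2.54 to 2.92 CPM in the knockout libraries. Its mitosis genes summed to 1010 CPM, against 383 and 321 CPM in the other wild type libraries. The part of these cell types in the histone values was not tested, and results that rest on wild type replicate 3 are given with and without it.

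DNA is wrapped around octamers of the core histones, H2A with H2B and H3 with H4, and H1 binds where the DNA enters and leaves the particle. Cells make most of their histone protein during S phase, when the clustered genes are transcribed strongly and new chromatin is assembled behind the replication fork. The mRNAs of these genes are unusual in that they end in a conserved stem-loop instead of a poly(A) tail, and the stem-loop binding protein (Slbp) guides their processing, translation and decay. In skin, dividing cells lie mainly in the basal epidermis and in growing hair follicles. Libraries made by removing ribosomal RNA, as here, keep mRNAs without a poly(A) tail, whereas selection on poly(A) loses most of them.

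The stem-loop is shown first because it is the feature that most members share and that the choice of members did not use. GENCODE M21 transcripts (GRCm38) were searched for a 6 base-pair stem and a 4-base loop starting with TT. The first arm of the stem had to start with GG and continue with C or T only. The stem-loop was found in 43 of 68 members. The same search found it in 12 of 21810 other protein-coding genes (0.055%). Capitals mark the arms of the stem, and T stands for U of the RNA.
H1, H2A, H2B and H3 form (25 members, such as Hist1h1c and Hist1h2bj): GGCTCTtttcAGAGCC
Form with a changed loop (6 members, such as Hist1h2bk and Hist1h3f): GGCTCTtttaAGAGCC
H4 form (7 members, such as Hist1h4d and Hist1h4m): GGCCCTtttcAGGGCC
Second H4 form (2 members, Hist1h4b and Hist1h4j): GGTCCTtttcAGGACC
H4 form with a changed loop (2 members, Hist1h4i and Hist2h4): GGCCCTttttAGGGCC
Form of Hist2h2ac alone: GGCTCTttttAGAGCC
All 11 stem-loops found in H4 genes had a stem other than GGCTCT, and no H1, H2A, H2B or H3 gene had an H4 stem. The median log2 difference between genotypes was 1.76 for tested members with the form printed first and 1.99 for the one with the changed loop. It was 1.84, 2.32 and 1.24 for the 3 H4 forms in the order printed, and Hist2h2ac had 1.5. In 25 members no stem-loop was found, and for 15 of these the transcript model holds at most 40 bases beyond the coding sequence, so its 3′ end could not be searched.

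Most histone cluster genes were higher in knockout skin. Of the 67 members that passed the filter on low counts (all but Hist1h1t), 49 rose and 3 fell at an adjusted p under 0.05, and 15 did not pass the test. The background was high: 45.1% of all 16691 tested genes were called, 22.3% of them as higher and 22.7% as lower, while 73.1% of tested members were called higher. Called increases of at least 1 on the log2 scale (a doubling) were found for 47 members, beside 9.24% of all tested genes. The median log2 difference was 1.82 for the members and -0.04 for all tested genes. All 3 knockout libraries lay above all 3 wild type libraries for 55 members, beside 29.2% of all tested genes, and below them for 4 members, beside 30.5%.

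Summed over all 68 members, the level was 1110, 943 and 2650 CPM in wild type replicates 1, 2 and 3 and 4490, 4290 and 6170 CPM in knockout replicates 1, 2 and 3. The groups did not overlap, but wild type replicate 3 was more than 2 times as high as the other wild type libraries and knockout replicate 3 was the highest of all. The means were 1570 ± 940 CPM in wild type, against 4990 ± 1030 CPM in knockout skin (SD, n = 3 each), a ratio of 3.18. Without wild type replicate 3 the ratio was 4.86, and against wild type replicate 3 alone it was 1.88. As a share of all gene counts, the members took 0.119%, 0.0939% and 0.290% in wild type and 0.403%, 0.415% and 0.605% in knockout skin.

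**Figure D1:**
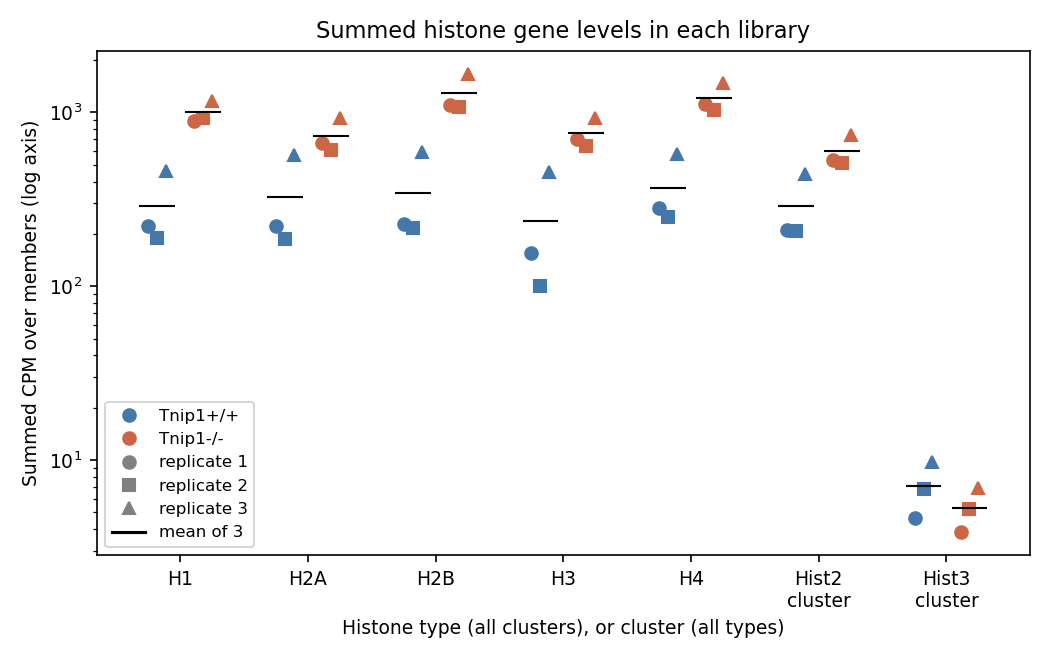
Summed CPM (log axis) of the members of each histone type over all clusters, and of the Hist2 and Hist3 clusters over all types, in each of the 6 libraries; bars mark the mean of 3. In all 5 types each knockout library lies above each wild type library, with wild type replicate 3 the highest of its group; the Hist3 sums, 3.84 to 9.70 CPM, overlap.

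The high histone level of wild type replicate 3 ran through nearly all members. It was the highest wild type library for 66 of 67 tested members, beside 27.9% of all tested genes, and reached at least 2 times the mean of the other 2 wild type libraries for 55 members, beside 2.81%. The median of that ratio was 3.32 for members and 0.985 for all tested genes. For 12 members wild type replicate 3 reached the lowest knockout library or lay above it, beside 61.1% of all tested genes. In 4 of these 12, Hist1h2aj, Hist1h2al, Hist3h2a and Hist2h2be, all knockout libraries lay below all wild type libraries. Leaving out wild type replicate 3 gave 61 members higher and 2 lower, with a median log2 difference of 2.63, beside 18.9% of all tested genes called higher. Leaving out wild type replicate 1 gave 28 higher, beside 20.1%, and leaving out knockout replicate 3 gave 30 higher, beside 16.8%. Over the 6 fits that each leave out 1 library, 16.3% to 20.1% of all tested genes were called higher. Wild type replicate 2 was the lowest of all 6 libraries for 54 members, beside 27.2% of all tested genes, and knockout replicate 3 was the highest for 57, beside 15.1%.

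When libraries were scaled by their totals alone, without TMM factors, the median of all genes moved by -0.155 on the log2 scale and 2490 of 7299 called genes were higher (14.9% of tested genes, against 22.3%); 39 members were then higher and 4 lower, with a median of 1.64. With a muscle and fat marker score as a covariate, 1 member was called (Hist1h2ba, higher), as were 4.73% of all tested genes, and the median log2 difference of the members was 1.77. That score did not overlap between genotypes, so in 6 libraries it cannot be told apart from genotype.

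**Figure D2:**
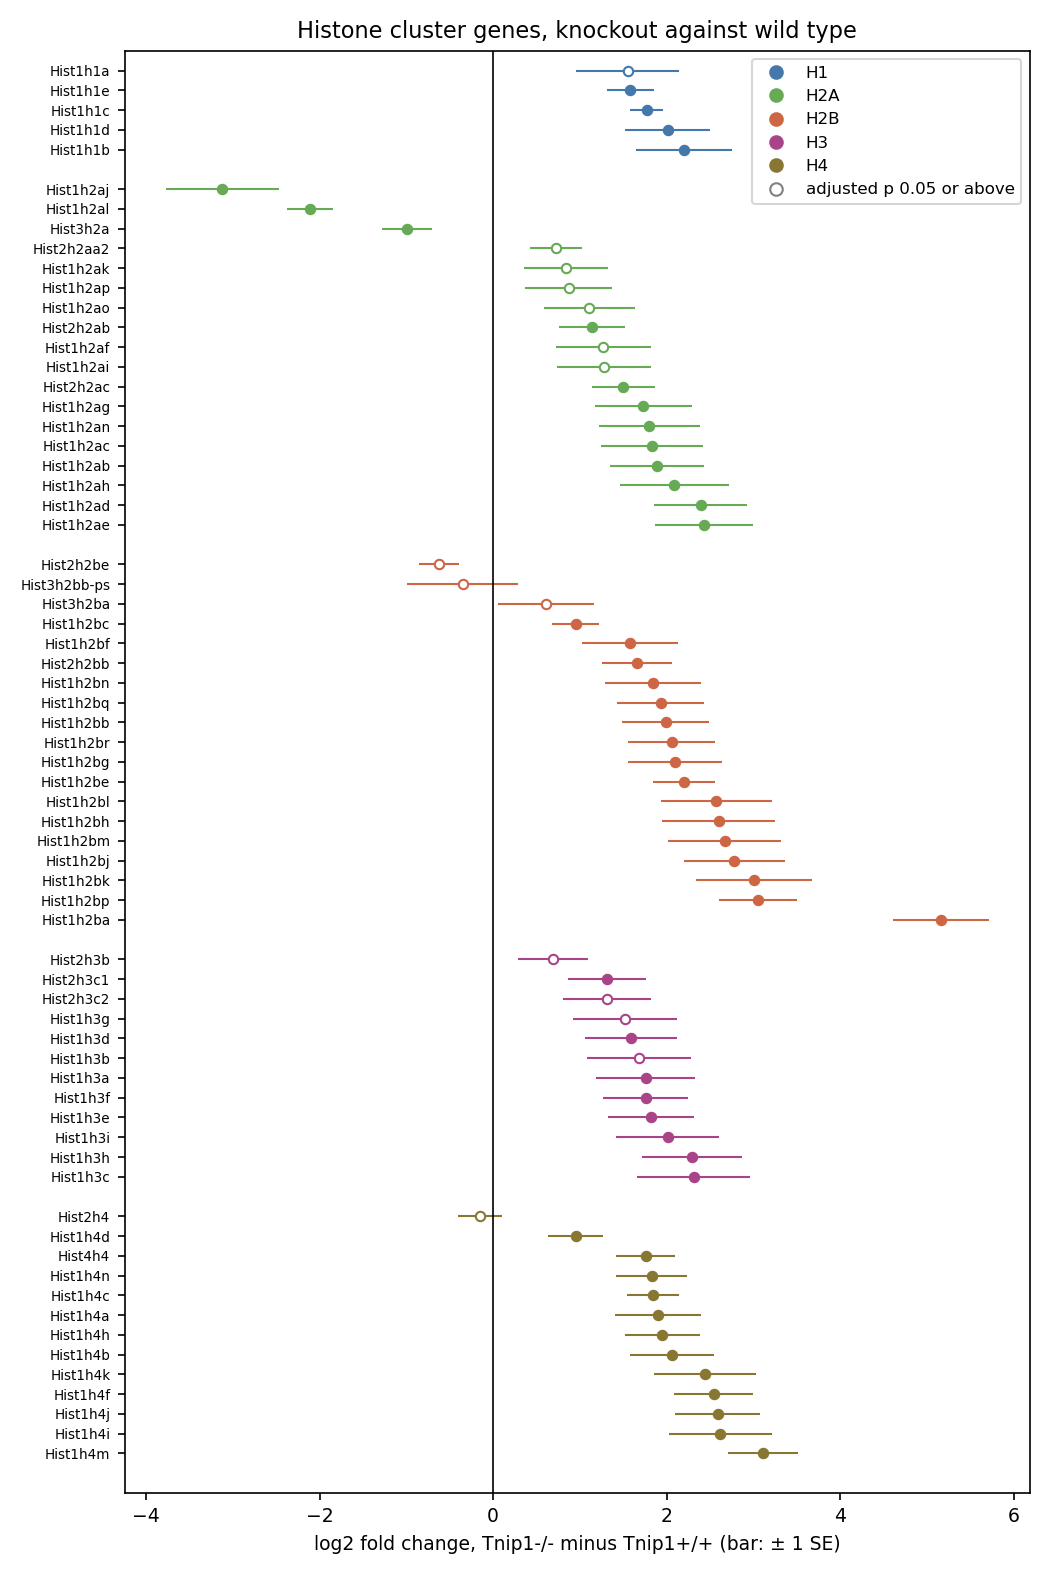
Log2 difference, knockout minus wild type, of each of the 67 tested members, grouped by histone type; bars are 1 standard error and open circles have an adjusted p of 0.05 or above. Most members lie between 1 and 3, 3 H2A genes are called lower, and Hist1h2ba lies farthest to the right at 5.16.

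The linker histone H1 genes rose almost as a group: 4 of 5 tested members were higher and none lower, with a median log2 difference of 1.77. The H1 sum was 221, 189 and 458 CPM in wild type, against 897, 933 and 1170 CPM in knockout skin, without overlap. Hist1h1c, the gene of H1.2, had the most counts of all members. Its level was 86.4, 80.0 and 121 CPM in wild type, against 281, 330 and 368 CPM in knockout skin, so even wild type replicate 3 stayed far below the lowest knockout library (log2 difference 1.77, SE 0.19, adjusted p = 0.00109). Hist1h1e, the gene of H1.4, was 66.7, 56.2 and 116 CPM in wild type, against 225, 230 and 262 CPM in knockout skin (log2 difference 1.58, SE 0.27, adjusted p = 0.00455). For these 2 genes no library, when left out, ended the call or moved the value by more than 1.5 times. The remaining H1 genes had larger values without wild type replicate 3. Hist1h1d (H1.3) was 29.7, 23.6 and 88.4 CPM in wild type, against 188, 159 and 225 CPM in knockout skin and rose by 2.01 in log2 units (SE 0.49, adjusted p = 0.0155), or by 2.85 without wild type replicate 3. Hist1h1b (H1.5) was 17.5, 13.2 and 57.5 CPM in wild type, against 123, 114 and 167 CPM in knockout skin and rose by 2.20 (SE 0.55, adjusted p = 0.0165), or by 3.15 without that library. Hist1h1a (H1.1) was 20.4, 16.3 and 75.1 CPM in wild type, against 79.9, 98.6 and 148 CPM in knockout skin. Its groups did not overlap, but wild type replicate 3 lay just below knockout replicate 1, and the difference of 1.55 (SE 0.59) did not pass the test (adjusted p = 0.0666); without wild type replicate 3 it was 2.58 (adjusted p = 0.00308). Hist1h1c made up 26.3% of H1 counts in wild type replicate 3, against 39.2% and 42.2% in the other wild type libraries and 31.3%, 35.4% and 31.5% in knockout skin.

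H2A genes were the most mixed type. Of 18 members, 9 rose, 3 fell and 6 did not pass the test, with a median log2 difference of 1.27. Summed H2A was 221, 188 and 569 CPM in wild type, against 663, 605 and 926 CPM in knockout skin, so the lowest knockout library was only 1.06 times wild type replicate 3. Leaving out wild type replicate 3 gave 15 higher and 2 lower, beside 18.9% of all tested genes higher. Only 3 of 18 were higher when either of the other wild type libraries or knockout replicate 1 or 3 was left out. In those fits 16.8% to 20.1% of all tested genes were higher, so 3 of 18 was no more than that share. Hist2h2aa2, the H2A member with the most counts, was 67.3, 50.3 and 113 CPM in wild type, against 125, 103 and 152 CPM in knockout skin. Knockout replicate 2 lay below wild type replicate 3, and the difference of 0.72 (SE 0.30) did not pass the test (adjusted p = 0.0871); without wild type replicate 3 it was 1.12 (adjusted p = 0.0125). Reads of Hist2h2aa2 and its identical copy Hist2h2aa1, listed at 0, could not be told apart.

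Hist1h2ap and Hist1h2ao belong to a set of 5 H2A members, each at least 99% identical in coding sequence to another of the set. The counts of each are therefore uncertain. Hist1h2ap was 18, 21.2 and 64.7 CPM in wild type, against 51.8, 52.0 and 85.7 CPM in knockout skin, and Hist1h2ao was 15.7, 17.3 and 59.4 CPM in wild type, against 54.6, 55.9 and 88.4 CPM in knockout skin. In both, wild type replicate 3 lay among the knockout libraries, and the differences of 0.87 (SE 0.50) and 1.11 (SE 0.52) did not pass the test (adjusted p = 0.189 and 0.122). Without wild type replicate 3 they were 1.7 and 2.02 (adjusted p = 0.00669 and 0.00379). The other 3 of the set were called higher, Hist1h2ad by 2.39, Hist1h2ae by 2.43 and Hist1h2ag by 1.73, or by 3.31, 3.43 and 2.70 without wild type replicate 3. Hist1h2ag lost its call when wild type replicate 1 or 2 or any knockout library was left out (1.47, 1.37, 1.85, 1.86 and 1.48, in library order).

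Hist1h2ab was 12.8, 9.01 and 39.6 CPM in wild type, against 64.3, 63.2 and 99.2 CPM in knockout skin and rose by 1.89 (SE 0.54, adjusted p = 0.0276). The call was lost when wild type replicate 1 or 2 was left out (1.65 and 1.53), and likewise for knockout replicate 1 or 3 (2.0 and 1.65). The value was 2.80 without wild type replicate 3. Hist1h2ak was 15.5, 18 and 55.5 CPM in wild type, against 48.4, 45.2 and 65.7 CPM in knockout skin, with wild type replicate 3 above 2 of the 3 knockout libraries. Its difference of 0.84 (SE 0.48, adjusted p = 0.187) did not pass the test, and without wild type replicate 3 it was 1.68 (adjusted p = 0.00349).

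All 3 members that fell were H2A genes, and 2 of them are pseudogenes in GENCODE. Hist1h2aj was 2.10, 1.63 and 6.37 CPM in wild type, against 0.474, 0.212 and 0.470 CPM in knockout skin, low in all 3 knockout libraries and highest in wild type replicate 3 (log2 difference -3.12, SE 0.65, adjusted p = 0.00902; -2.26 without wild type replicate 3). Hist1h2al was 17.7, 20.3 and 30.2 CPM in wild type, against 6.21, 3.90 and 5.64 CPM in knockout skin, again with no overlap (log2 difference -2.11, SE 0.27, adjusted p = 0.00176), and no single library changed its call. The third pseudogene, Hist3h2bb-ps, gave -0.35 (SE 0.64, adjusted p = 0.674) with overlapping groups, and 0.66 without wild type replicate 3. Hist3h2a, the only H2A gene of the Hist3 cluster, was 3.15, 5.51 and 4.29 CPM in wild type, against 1.68, 2.20 and 2.66 CPM in knockout skin. It was the only H2A member for which wild type replicate 3 was not the highest wild type library, and its groups did not overlap. Its fall of 0.99 (log2 difference -0.99, SE 0.29, adjusted p = 0.0301) lost its call when wild type replicate 2 or 3 was left out (-0.77 and -0.97), and likewise for knockout replicate 1 or 2 (-0.82 and -0.97).

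Among the 19 H2B genes, 16 rose, none fell and 3 did not pass the test, with a median log2 difference of 2.06, and all 15 H2B genes of the Hist1 cluster were called higher. The H2B sum was 229, 215 and 592 CPM in wild type, against 1110, 1080 and 1670 CPM in knockout skin. Hist2h2bb, the H2B member with the most counts, was 48.4, 51.3 and 123 CPM in wild type, against 188, 210 and 310 CPM in knockout skin and rose by 1.66 (SE 0.40, adjusted p = 0.0144), or by 2.25 without wild type replicate 3. Hist1h2bc was 45.2, 66.4 and 87.3 CPM in wild type, against 115, 106 and 163 CPM in knockout skin, a smaller rise (log2 difference 0.95, SE 0.27, adjusted p = 0.0249) that was not called when wild type replicate 2 (0.95) or knockout replicate 3 (0.75) was left out. Hist1h2be was 17.5, 13.4 and 35.1 CPM in wild type, against 101, 81.8 and 121 CPM in knockout skin (log2 difference 2.2, SE 0.36, adjusted p = 0.00407). In these 3 genes wild type replicate 3 was the highest wild type library and still lay below all knockout libraries. Hist1h2bb was 15.6, 16.4 and 50.4 CPM in wild type, against 80.8, 97.7 and 148 CPM in knockout skin and rose by 1.99 (SE 0.50, adjusted p = 0.0167), or by 1.72 without wild type replicate 2, where the call was lost, and 2.78 without wild type replicate 3. Hist1h2bg was 17.5, 8.70 and 44.0 CPM in wild type, against 94.1, 83.5 and 123 CPM in knockout skin and rose by 2.10 (SE 0.54, adjusted p = 0.0189). It was not called when wild type replicate 1 (1.94) or knockout replicate 3 (1.93) was left out. Its value was 2.94 without wild type replicate 3.

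The largest difference of all members was that of Hist1h2ba, the testis form of H2B, at very low counts. It had 1, 1 and 5 counts in wild type replicates 1, 2 and 3 and 84, 57 and 56 counts in knockout replicates 1, 2 and 3, that is 0.0300, 0.0340 and 0.185 CPM against 3.62, 2.41 and 2.92 CPM. The wild type libraries together held 7 counts and the knockout libraries 197, a ratio of 38.3 after scaling (95% exact interval 18.2 to 96.5, counting error only). The fitted log2 difference of 5.16 (SE 0.55, adjusted p = 0.00101) depends on how 1 count is smoothed, and it was 6.36 without wild type replicate 3. Hist1h1t, the testis form of H1, stayed at 1 to 7 counts in each library and was not tested.

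Hist1h2bk, Hist1h2bp, Hist1h2bj and Hist1h2bm had the next largest H2B differences. Hist1h2bk was 5.91, 3.13 and 20.5 CPM in wild type, against 71.6, 60.1 and 107 CPM in knockout skin and rose by 3.01 (SE 0.67, adjusted p = 0.011). Hist1h2bp was 1.53, 1.05 and 3.59 CPM in wild type, against 21.5, 13.2 and 16.1 CPM in knockout skin and rose by 3.05 (SE 0.45, adjusted p = 0.00292). In both, the lowest knockout library was more than 2 times wild type replicate 3. Hist1h2bj was 5.76, 4.04 and 18.5 CPM in wild type, against 53.3, 52.0 and 88.9 CPM in knockout skin and rose by 2.78 (SE 0.58, adjusted p = 0.00884). Hist1h2bm was 5.16, 3.30 and 18.1 CPM in wild type, against 35.2, 50.4 and 82.6 CPM in knockout skin and rose by 2.67 (SE 0.65, adjusted p = 0.0158). Knockout replicate 3 was the highest library for Hist1h2bk, Hist1h2bj and Hist1h2bm, and knockout replicate 1 for Hist1h2bp. Without wild type replicate 3 the 4 values were 4.14, 3.72, 3.73 and 3.73, in the order named. The 3 H2B members without a call lay outside the Hist1 cluster. Hist2h2be, known as the gene of H2BE, a variant of olfactory neurons, was 4.26, 4.96 and 6.44 CPM in wild type, against 3.23, 2.97 and 4.02 CPM in knockout skin. Every knockout library lay below every wild type library, with a difference of -0.62 (SE 0.23, adjusted p = 0.067) that was called with library totals alone. Hist3h2ba gave 0.61 (SE 0.55, adjusted p = 0.395), and 1.5 without wild type replicate 3 (adjusted p = 0.0246).

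All 12 H3 genes had values above 0. Of these, 8 rose, none fell and 4 did not pass the test, with values of 0.69 to 2.31 and a median of 1.72. The H3 sum was 156, 101 and 453 CPM in wild type, against 702, 639 and 931 CPM in knockout skin, with no overlap, and wild type replicate 3 was 3.53 times the mean of the other wild type libraries. Fewer H3 genes were called when any library other than wild type replicate 3 was left out, though the median then stayed between 1.32 and 1.82. Of the 12 genes, 0 were called when wild type replicate 1 was left out and 5 when wild type replicate 2 was. Leaving out knockout replicate 1, 2 or 3 gave 3, 5 and 1 calls. In these fits 20.1%, 19.5%, 16.8%, 16.3% and 16.8% of all tested genes were called higher, in the same order. The counts of 0 and 1 of 12 thus lay below that share. All 12 were called when wild type replicate 3 was left out, with a median of 2.60, beside 18.9% of all tested genes called higher. Hist1h3f was 21.6, 14.1 and 57.2 CPM in wild type, against 96.8, 87.6 and 130 CPM in knockout skin and rose by 1.76 (SE 0.49, adjusted p = 0.0251). Hist1h3c was 9.54, 5.00 and 33.2 CPM in wild type, against 67.9, 68.4 and 100 CPM in knockout skin and rose by 2.31 (SE 0.65, adjusted p = 0.0251). In both, as in all 9 H3 genes of the Hist1 cluster, the groups did not overlap and wild type replicate 3 lay between the other wild type libraries and the knockout libraries. Hist1h3e was 15, 8.19 and 36.3 CPM in wild type, against 65.2, 61.2 and 83.9 CPM in knockout skin and rose by 1.82 (SE 0.50, adjusted p = 0.023). Hist1h3h, which shares at least 99% of its coding sequence with Hist1h3g and Hist1h3i, was 9.51, 4.55 and 26.0 CPM in wild type, against 69.0, 50.7 and 76.4 CPM in knockout skin and rose by 2.29 (SE 0.58, adjusted p = 0.0175). Without wild type replicate 3 these 4 genes gave 2.57, 3.45, 2.60 and 3.22. Hist1h3b was 16.9, 9.45 and 54.0 CPM in wild type, against 71.6, 76.0 and 110 CPM in knockout skin; its difference of 1.68 (SE 0.60) did not pass the test (adjusted p = 0.0545), and was 2.71 without wild type replicate 3 (adjusted p = 0.00345). The groups overlapped for 1 H3 gene, Hist2h3b, at 16.9, 15.7 and 45.3 CPM against 40.9, 36.4 and 48.2 CPM, whose reads are uncertain against the near-identical Hist2h3c2. It did not pass the test (0.69, adjusted p = 0.198), and gave 1.37 without wild type replicate 3 (adjusted p = 0.00343).

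H4 genes had the highest share of calls: 12 of 13 members rose, none fell and 1 did not pass the test, with a median log2 difference of 1.95. The H4 sum was 283, 250 and 576 CPM in wild type, against 1120, 1030 and 1480 CPM in knockout skin. Between 10 and 12 H4 genes were called higher whichever library was left out, beside 16.3% to 20.1% of all tested genes. Hist1h4m was 12.5, 9.58 and 26.2 CPM in wild type, against 127, 112 and 177 CPM in knockout skin, the largest difference of the type (log2 difference 3.11, SE 0.40, adjusted p = 0.00184), though its reads are uncertain against the near-identical Hist1h4n, which rose by 1.83. The knockout mean of Hist1h4m was 5.30 times wild type replicate 3. Hist1h4f was 12.3, 9.79 and 33.2 CPM in wild type, against 103, 90.3 and 128 CPM in knockout skin and rose by 2.54 (SE 0.46, adjusted p = 0.00557), or by 3.29 without wild type replicate 3. Hist1h4c was 28.6, 20.2 and 46.7 CPM in wild type, against 104, 104 and 133 CPM in knockout skin and rose by 1.84 (SE 0.30, adjusted p = 0.00395). Hist1h4h was 33.7, 17.7 and 64.3 CPM in wild type, against 135, 130 and 180 CPM in knockout skin and rose by 1.95 (SE 0.43, adjusted p = 0.0113), or by 2.54 without wild type replicate 3. For these genes every knockout library lay above every wild type library.

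Hist1h4d, the H4 member with the most counts, differed less. It was 80.8, 78.2 and 173 CPM in wild type, against 198, 188 and 254 CPM in knockout skin, so wild type replicate 3 came close to the knockout libraries. The rise of 0.95 (SE 0.32, adjusted p = 0.0481) lost its call without any one library other than wild type replicate 3. The value was 0.78 and 0.75 when wild type replicate 1 or 2 was left out, and 1.01, 1.05 and 0.81 when knockout replicate 1, 2 or 3 was. Its part of all H4 counts was 28.6%, 31.3% and 30.1% in wild type and 17.8%, 18.2% and 17.2% in knockout skin. Hist2h4 was 31.4, 58.3 and 58.3 CPM in wild type, against 42.3, 39.1 and 52.1 CPM in knockout skin, with overlapping groups and a difference of -0.15 (SE 0.25, adjusted p = 0.648), or 0.00 without wild type replicate 3. Hist4h4, the single member of the Hist4 cluster, was 23.9, 18.9 and 30.2 CPM in wild type, against 48.1, 79.0 and 120 CPM in knockout skin, and its knockout libraries were spread widely (log2 difference 1.76, SE 0.34, adjusted p = 0.00676). Hist1h4i was 2.61, 2.58 and 6.26 CPM against 42.3, 10.7 and 17.0 CPM, high in knockout replicate 1; its difference of 2.62 (SE 0.59, adjusted p = 0.0119) was 1.87 without that library.

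**Figure D3:**
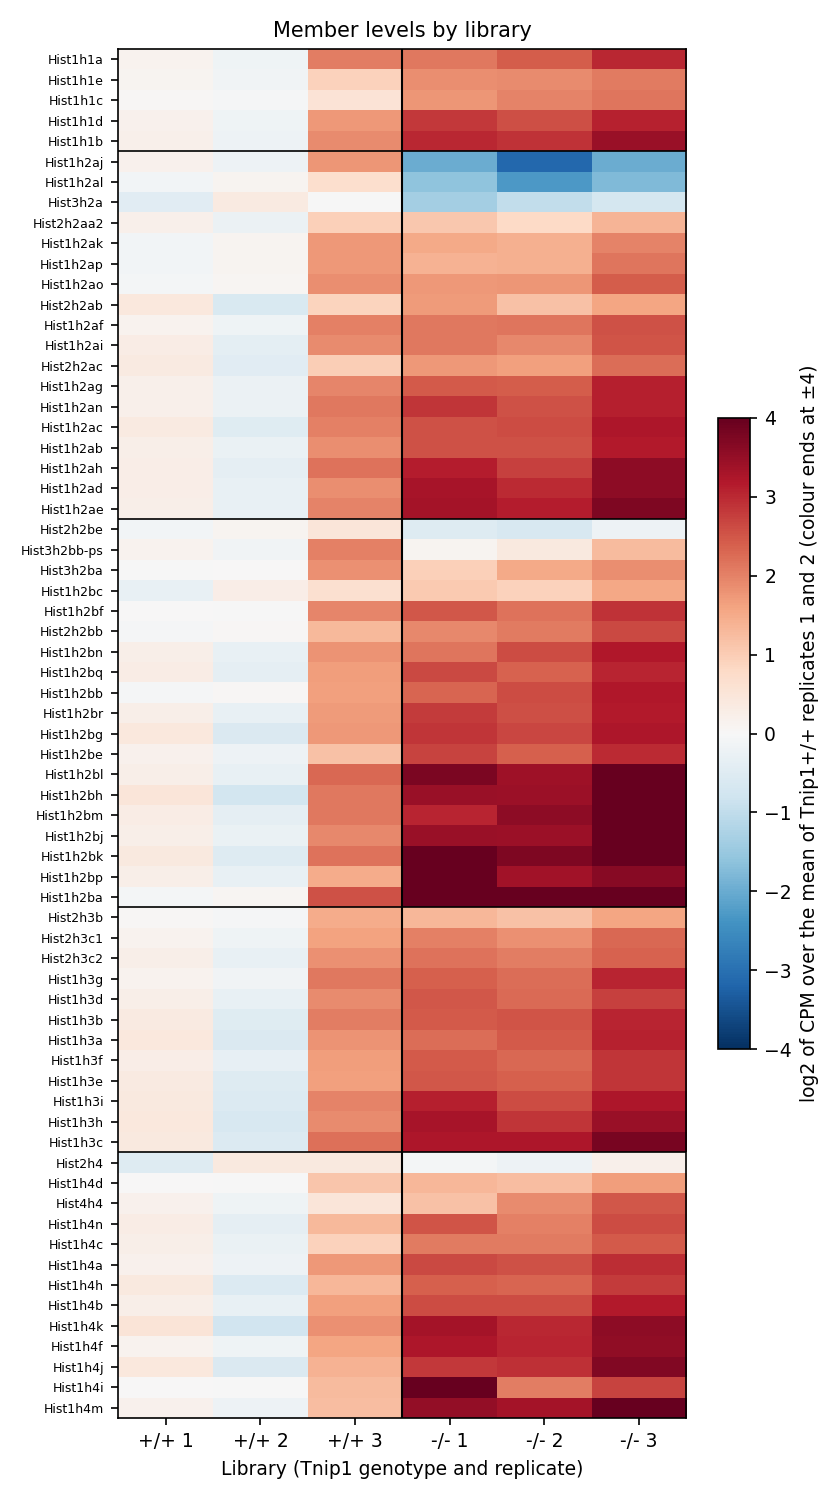
Log2 ratio of each tested member's CPM to the mean of wild type replicates 1 and 2 in all 6 libraries (columns), with members in rows grouped by histone type in the order H1, H2A, H2B, H3, H4; red is higher, blue lower, and colours end at 4 in either direction. Wild type replicate 3 is red for nearly all members (median ratio 3.32 on the linear scale), the knockout columns are darker red, and Hist1h2aj, Hist1h2al and Hist3h2a are blue in all 3 knockout columns.

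The make-up of the summed histone counts also differed between genotypes. H2A took 19.9%, 19.9% and 21.5% of summed histone CPM in wild type, against 14.8%, 14.1% and 15% in knockout skin, while H2B took 20.6%, 22.8% and 22.4% against 24.8%, 25.3% and 27.0%. Neither share overlapped between genotypes, and wild type replicate 3 lay closer to the other wild type libraries than to the knockout libraries in both. In the other types the shares overlapped between genotypes, and there wild type replicate 3 stood apart within its group. The H3 share of wild type replicate 3 was 17.1%, above the other wild type libraries (14% and 10.7%) and knockout skin (14.9% to 15.6%). Its part of H4 was 21.8%, against 25.5% and 26.5% in wild type and 24.0% to 24.9% in knockout skin, and that of H1 was 17.3%, against 19.9% and 20.1% in wild type and 19.0% to 21.7% in knockout skin. These shares are of counts and are not scaled to gene length, so they compare libraries and not types. The ratio of the H2B sum to the H2A sum was 1.04, 1.14 and 1.04 in wild type and 1.68, 1.79 and 1.80 in knockout skin. Without the pseudogenes it was 1.13, 1.29 and 1.11 against 1.7, 1.80 and 1.81. Within the Hist1 cluster without pseudogenes it was 1.55, 1.57 and 1.18 against 1.90, 1.92 and 1.92, a smaller gap except for wild type replicate 3.

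By cluster, the median difference was largest in Hist1 and lowest in Hist3. In Hist1, 44 of 54 tested members rose and 2 fell, with a median log2 difference of 1.91. In Hist2, 4 of 9 rose and none fell, with a median of 1.14, and in Hist3 none of 3 rose and 1 fell, with a median of -0.35. No test of a difference between clusters was made. The Hist2 sum was 211, 209 and 443 CPM in wild type, against 535, 514 and 739 CPM in knockout skin, and that of Hist3 was 4.62, 6.86 and 9.70 CPM against 3.84, 5.21 and 6.95 CPM. The Hist1 sum was 4.12, 3.39 and 4.88 times the Hist2 sum in wild type and 7.29, 7.18 and 7.18 times in knockout skin. Without wild type replicate 3, the medians were 2.76 in Hist1, 1.5 in Hist2 and 0.66 in Hist3, and 52, 7 and 1 members were higher. Hist1 had 25 members higher when wild type replicate 1 was left out and 27 when knockout replicate 3 was, beside 20.1% and 16.8% of all tested genes. Hist2 had 2 of 9 higher when any library other than wild type replicate 3 was left out. That is near the 16.3% to 20.1% of all tested genes in those fits.

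Many H2A and H2B genes start back to back close to each other and so share the stretch between their start sites. In the GENCODE models 14 pairs of members start on opposite strands at most 1000 bases apart, and 13 of them join an H2A and an H2B gene. The H2B value was above the H2A value in 9 of the 13, and both genes were called higher in 6. The median of H2B minus H2A was 0.93 on the log2 scale. Hist1h2aj and Hist3h2bb-ps are pseudogenes in GENCODE, and the pairs that hold them are among the 9. The pairs Hist1h2ao with Hist1h2bq and Hist1h2ap with Hist1h2br have H2A genes, and likewise H2B genes, of 100% identical coding sequence. Their values are therefore not independent. The pair Hist1h2aj and Hist1h2bm, 236 bases apart, moved in opposite directions, Hist1h2aj falling (-3.12) and Hist1h2bm rising (2.67), the widest gap of 5.79. The pair Hist2h2ac and Hist2h2be was the reverse, Hist2h2ac rising by 1.5 with Hist2h2be at -0.62. Hist3h2a (-0.99) and Hist3h2bb-ps (-0.35) were the only pair with both values below 0.

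**Figure D4:**
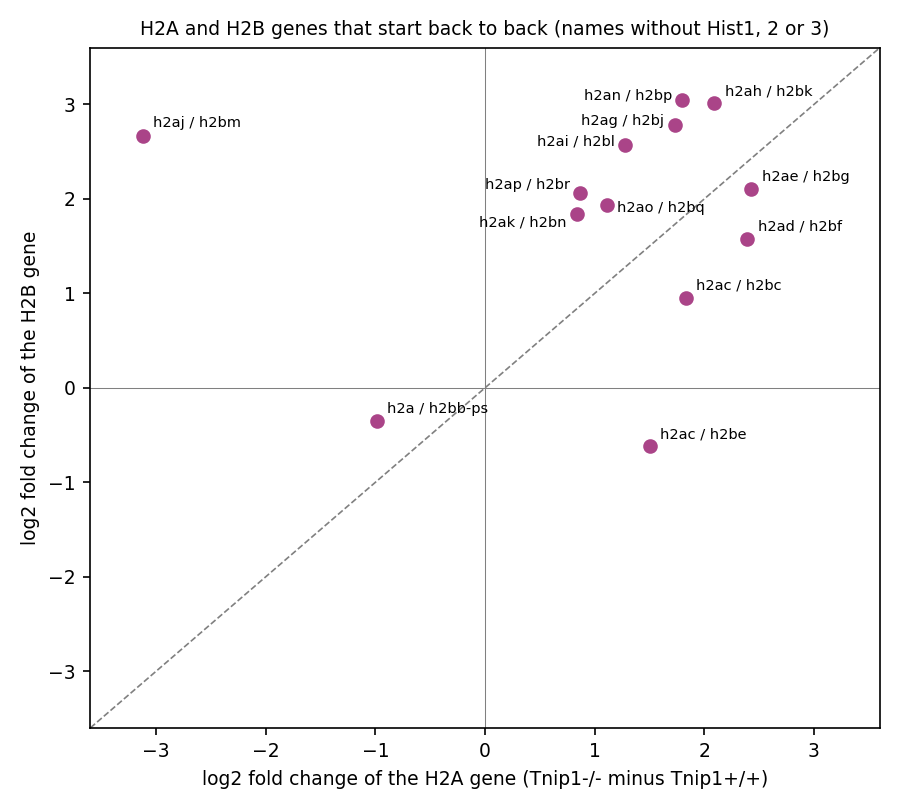
Log2 difference (knockout minus wild type) of the H2B gene against that of the H2A gene in the 13 back-to-back pairs; the dashed line marks equal values. The pairs above the line number 9, and Hist1h2aj with Hist1h2bm stands alone at the upper left.

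The promoters of 4 members are printed, chosen after their values were seen, to set different outcomes side by side: Hist1h2bk, which rose and shares its stretch with the rising Hist1h2ah, Hist1h2bm, which rose and shares it with the falling Hist1h2aj, Hist1h4m, the H4 gene with the largest difference, and Hist3h2a, which fell. Each runs from 250 bases before to 50 bases after the RefSeq start, 5′ to 3′ on the gene's strand (GRCm38.p6, all on the plus strand). Capitals mark matches on either strand to the TATA box, the CCAAT box and the octamer, whose letters are spelled out with their counts after the sequences, and in the H4 promoter also to the short run GGTCC.
Hist1h2bk, chr13:22035571-22035870: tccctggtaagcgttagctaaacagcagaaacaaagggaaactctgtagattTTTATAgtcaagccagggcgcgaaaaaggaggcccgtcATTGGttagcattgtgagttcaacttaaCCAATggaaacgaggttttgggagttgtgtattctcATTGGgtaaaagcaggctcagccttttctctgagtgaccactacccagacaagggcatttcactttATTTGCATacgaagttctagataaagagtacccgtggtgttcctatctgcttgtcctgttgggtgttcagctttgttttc
Hist1h2bm, chr13:21721794-21722093: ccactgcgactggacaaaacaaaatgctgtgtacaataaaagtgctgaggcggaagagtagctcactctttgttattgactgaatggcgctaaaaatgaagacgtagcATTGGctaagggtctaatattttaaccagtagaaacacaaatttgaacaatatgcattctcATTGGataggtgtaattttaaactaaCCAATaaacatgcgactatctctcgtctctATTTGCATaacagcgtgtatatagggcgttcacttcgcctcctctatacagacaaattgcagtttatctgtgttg
Hist1h4m, chr13:21811496-21811795: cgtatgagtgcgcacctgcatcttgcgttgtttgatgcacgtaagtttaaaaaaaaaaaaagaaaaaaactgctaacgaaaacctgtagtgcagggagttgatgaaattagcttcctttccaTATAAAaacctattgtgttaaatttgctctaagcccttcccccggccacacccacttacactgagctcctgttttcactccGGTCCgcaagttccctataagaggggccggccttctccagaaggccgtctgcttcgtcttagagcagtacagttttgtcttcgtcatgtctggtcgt
Hist3h2a, chr11:58954435-58954734: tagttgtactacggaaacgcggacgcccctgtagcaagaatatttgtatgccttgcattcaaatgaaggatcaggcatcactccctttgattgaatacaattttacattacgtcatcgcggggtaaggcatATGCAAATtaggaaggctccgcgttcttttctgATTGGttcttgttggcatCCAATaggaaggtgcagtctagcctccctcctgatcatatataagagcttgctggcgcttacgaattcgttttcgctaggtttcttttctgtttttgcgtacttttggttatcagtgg
RefSeq promoters were matched for 60 of 68 members and compared with all 27025 promoters in the table. The letters CCAAT, on either strand, occurred in every matched H1, H2A, H2B and H3 promoter (6, 16, 16 and 10) but in 3 of 12 H4 promoters, beside 37.9% of all promoters. TATAAA occurred in 33 of 60, beside 14.2%. The octamer ATTTGCAT, the letters bound by Oct-1 in H2B promoters, occurred in 6 of 16 H2A and 6 of 16 H2B promoters and in no other member, beside 1.75%. GGTCC occurred in 11 of 12 H4 promoters, beside 45.4%, and the letters TTTCGCGC, TTTGGCGC or TTTCCCGC, typical of E2F sites, in 10 of 60, beside 1.91%. Back-to-back genes share part of their windows, so these promoters are not independent. Of the 6 H2B genes with the octamer, 6 rose (median 2.38), and of the 10 without it 9 rose (median 2.13). Hist3h2a holds both CCAAT and the octamer and fell, so these letters were present in members of either direction.

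The length of the transcript model beyond the stem-loop was compared because some histone genes also make longer mRNAs with a poly(A) tail. Of 21 tested members whose model ends at most 100 bases after the stem-loop, 17 rose, with a median of 1.95. Of 21 whose model runs further, 17 rose and 1 fell, with a median of 1.77. Among the 25 without a stem-loop found, 15 rose and 2 fell, with a median of 1.66. Whether the counted RNA had a tail was not measured.

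Histones made outside the clusters differed by gene. Of 10 tested replication-independent histones and variants, 5 rose and none fell, with a median log2 difference of 0.57. H2afz, the gene of H2A.Z, was 46.1, 34.0 and 60.9 CPM in wild type, against 241, 279 and 301 CPM in knockout skin, and rose in all 3 knockout libraries (log2 difference 2.54, SE 0.23, adjusted p = 0.000606). H2afx, the gene of H2A.X, was 9.06, 5.10 and 20.4 CPM in wild type, against 57.3, 57.6 and 80.0 CPM in knockout skin; it was high in wild type replicate 3 like the clustered genes (log2 difference 2.5, SE 0.48, adjusted p = 0.00656; 3.2 without that library). Cenpa, the centromeric H3, was 4.98, 3.30 and 8.44 CPM in wild type, against 19.7, 25.9 and 32.6 CPM in knockout skin (log2 difference 2.23, SE 0.36, adjusted p = 0.00371). H3f3a, a gene of the replacement histone H3.3, was 360, 364 and 374 CPM in wild type, against 571, 652 and 645 CPM in knockout skin, level among the wild type libraries (log2 difference 0.77, SE 0.12, adjusted p = 0.00328). The summed level of this list was 966 to 1090 CPM in wild type, against 1540 to 1780 CPM in knockout skin.

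Genes that transcribe, process or carry histones and their mRNAs had lower medians. Of 21 genes for transcription, processing and decay of histone mRNA, 7 rose and 1 fell, with a median of 0.25. The share called higher was 33.3%, not far above the 22.3% of all tested genes. Slbp rose by 0.67, Cpsf2, a subunit of the cleavage machinery, rose by 0.68 (SE 0.09, adjusted p = 0.00234), and Ncbp1, the larger cap-binding subunit, rose by 0.60 (SE 0.13, adjusted p = 0.0114). Eri1, the exonuclease that trims the stem-loop end, rose by 0.55 (SE 0.14, adjusted p = 0.0186), a call lost without knockout replicate 2 (0.50) or knockout replicate 3 (0.55). Npat, the activator of histone gene transcription in S phase, was at 0.04 and did not pass the test. Zcchc11, a terminal uridylyltransferase, fell by 1.15 (log2 difference -1.15, SE 0.15, adjusted p = 0.00182), from 31.2, 41.3 and 31.6 CPM to 14.3, 16.3 and 16 CPM. With library totals alone 2 genes of this list rose and 1 fell, beside 14.9% of all tested genes higher. Leaving out knockout replicate 1, 2 or 3 left 4, 3 and 3 higher, beside 16.3% to 16.8%. Of 26 histone chaperones, 8 rose and 1 fell, with a median of 0.40. That is 30.8% called higher, again not far above 22.3%. Rbbp4 rose by 0.59, Nap1l4 by 0.52 and Rbbp7 by 0.49. Atrx, the H3.3 remodeller, fell by 0.72 (log2 difference -0.72, SE 0.14, adjusted p = 0.00662). With library totals alone 3 chaperones rose and 2 fell, beside 14.9% of all tested genes higher, and 4 rose without knockout replicate 3, beside 16.8%. Leaving out wild type replicate 3 gave 12 chaperones higher and 1 lower, beside 18.9% of all tested genes higher.

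Cell cycle genes were high in the same libraries as histone genes. Of 49 DNA replication genes, 25 rose and none fell (51.0% higher, beside 22.3% of all tested genes), with a median log2 difference of 0.84. All 49 were highest among wild type libraries in replicate 3, beside 27.9% of all tested genes. Their sum was 828, 712 and 1340 CPM in wild type, against 1440, 1710 and 1990 CPM in knockout skin. Ccne1, the S phase cyclin E1, rose by 1.74 (SE 0.31, adjusted p = 0.00517), Gmnn, the licensing inhibitor geminin, by 1.76 (SE 0.32, adjusted p = 0.00546), and Fen1, the flap endonuclease, by 1.54 (SE 0.28, adjusted p = 0.00547). Of 19 mitosis genes, 13 rose and none fell (68.4% higher), with a median of 1.52. Their sum was 383, 321 and 1010 CPM in wild type, against 1080, 1410 and 1760 CPM in knockout skin. Cdc20, Ccnb1 and Cdk1, which drive entry into and exit from mitosis, rose by 2.78, 2.35 and 2.10, or by 3.45, 3.08 and 2.88 without wild type replicate 3. Without that library 42 DNA replication genes and all 19 mitosis genes were called higher, beside 18.9% of all tested genes. Fewer were called when wild type replicate 1 (11 and 3) or 2 (12 and 4) was left out, or knockout replicate 1 (17 and 9), 2 (12 and 6) or 3 (11 and 3). In these fits 20.1%, 19.5%, 16.8%, 16.3% and 16.8% of all tested genes were called higher, in the same order. Several of the counts were near that share. Library totals alone gave 12 and 9, beside 14.9%.

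Relative to these genes, the histone sum was 1.34, 1.32 and 1.97 times the DNA replication sum in wild type and 3.12, 2.51 and 3.10 times in knockout skin, without overlap. It was 2.89, 2.94 and 2.62 times the mitosis sum in wild type and 4.16, 3.04 and 3.51 times in knockout skin, where knockout replicate 2 lay just above the wild type libraries. Wild type replicate 3 was thus high in both histone and mitosis genes, and their ratio there was the lowest of the 6 libraries. No test was made of these ratios.

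Other RNAs without a poly(A) tail were also higher in knockout skin, but not in wild type replicate 3. Of 51 tested small nucleolar, small Cajal body and related RNAs, 32 rose and none fell, with a median log2 difference of 1.49. That is 62.7% called higher, beside 22.3% of all tested genes. The sum of all RNAs of this list was 1100, 836 and 977 CPM in wild type, against 2730, 1210 and 1230 CPM in knockout skin, high mainly in knockout replicate 1. Snora73b alone held 998 CPM in that library. Leaving out knockout replicate 1 gave 23 of 51 higher and 1 lower, with a median of 1.04, beside 16.8% of all tested genes higher. Leaving out wild type replicate 2 or 3 gave 21 higher, of 53 and 55 tested, beside 19.5% and 18.9%. In 0 of the 51 was wild type replicate 3 at least 2 times the mean of the other wild type libraries, against 55 of 67 histone members. The part of the share of such RNAs in a library in the histone differences was not tested.

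**Figure D5:**
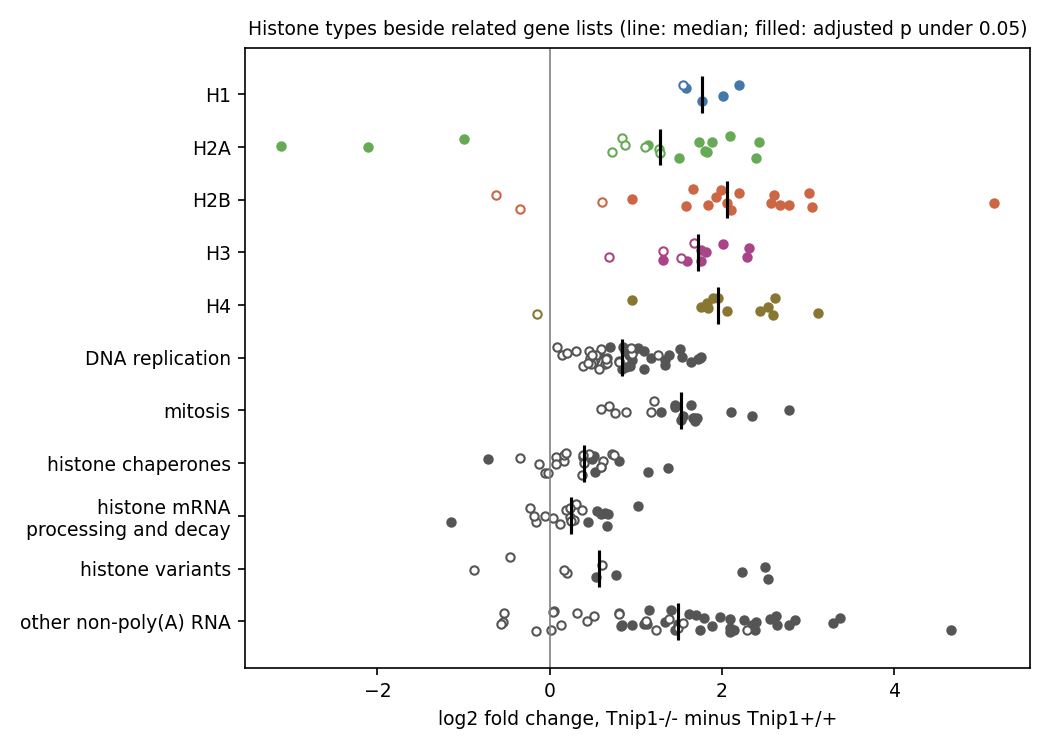
Log2 difference (knockout minus wild type) of each tested gene in the 5 histone types and in 6 related gene lists; vertical bars mark medians and filled points have an adjusted p under 0.05. The medians of the histone types, 1.27 to 2.06, lie near those of mitosis genes (1.52) and other RNAs without a poly(A) tail (1.49) and above those of the histone mRNA processing genes (0.25) and chaperones (0.40).

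Near-identical copies limit what can be said of single members. In 15 members the coding sequence was at least 99% identical to that of another Hist symbol. For Hist2h2aa2 that symbol was Hist2h2aa1, which is not a member. The others fall into 5 sets, in which each member reaches 99% identity with another of its set, though not always with all. The H2A set is Hist1h2ad, Hist1h2ae, Hist1h2ag, Hist1h2ao and Hist1h2ap. The H2B set is Hist1h2bq and Hist1h2br, and the H4 set is Hist1h4m and Hist1h4n. The H3 sets are Hist1h3g, Hist1h3h and Hist1h3i, and Hist2h3b with Hist2h3c2. With each set summed, 43 of the 57 tested genes or sets were higher and 3 lower. Hist2h2aa2 was summed with Hist2h2aa1 in that fit and is not among the 57.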

How the data were processed

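RNA of skin biopsies from 3 Tnip1+/+ and 3 Tnip1-/- mice was measured by RNA sequencing. Per the labels' protocols, TRIzol was used for RNA extraction, ribosomal RNA was removed, and stranded libraries were read in pairs. The authors deposited whole-number counts per gene symbol, 1 file per library. The submitters' processing notes name STAR, BWA and HTSeq, CASAVA 1.7, R 3.2.3 with limma, and the build mm9. The order and settings of these tools and the strand option are not given in the sources used here, so overlapping genes on either strand may share reads. The 5 summary lines of the counter, 26.7% to 30.3% of each file, entered neither library sizes nor tests. The line for reads with more than 1 alignment was 0 in every file, so how reads that match several copies were counted is not known.

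The test was run with edgeR 4.0.16 (R 4.3.3) on all 34590 symbols: default filterByExpr (a minimum count of 10 and a total of 15), TMM factors, glmQLFit and glmQLFTest, and Benjamini-Hochberg adjustment over 16691 genes. Calls are at an adjusted p under 0.05. Differences are log2 knockout minus wild type. The procedure was tested on simulated counts for knockout and wild type libraries (16494 genes). Among these, 96 genes had been changed by 1 and 97 by 2 on the log2 scale. It recovered 29.2% of the changes of 1 and 86.6% of the changes of 2, and 13 of the 125 genes it called had not been changed. In the data 45.1% of tested genes were called, a far larger share than was changed in the simulation. These recovery figures therefore do not carry over to the data. Between replicates of a genotype, chi-square over its degrees of freedom was 33.1 to 134, well above sampling noise, so each library counts as 1 replicate. The number of mice limits the precision, and intervals cover counting error only.

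Members and lists were chosen with earlier results of these data known. Values in every library are given for the 5 members with most CPM in each type, the 6 largest called increases, the called decreases and the members nearest the limit of 10 counts. From each list up to 4 genes with the smallest p were eligible to be named. Slbp, Npat, Hist1h2ad, Hist1h2ae, Hist1h2ag, Hist2h2be, Hist2h3b, Hist3h2ba, Hist2h4, Hist4h4, Hist1h4i and the extreme pairs were added after their values were seen. Names, copies, stem-loops and pairs came from GENCODE M21 (GRCm38) and promoters from RefSeq (GRCm38.p6), all 68 members matching by symbol or synonym. No coordinates of the files' build were used. Alternatives covered DESeq2 1.42.0, limma 3.58.1 (voom), other scaling factors and filters, a replicate block, leaving out each library, and a muscle and fat score. Summing near-identical copies was added after seeing the data.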

Additional observations from a re-analysis of the deposited data

Results flagged for a closer look

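The counter's line for reads that fell on more than 1 gene, which no comparison here uses, held more of the knockout files than of the wild type files. It took 1.22%, 0.90% and 1.16% of all counted reads in knockout replicates 1, 2 and 3 and 0.68%, 0.80% and 0.72% in wild type replicates 1, 2 and 3, so each knockout value lay above the highest wild type value. Which genes these reads overlap is not recorded in the files, and the part of histone genes in them was not tested.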

How the results depend on the processing

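The 52 members called, 49 higher and 3 lower, became 60 with DESeq2, 58 with limma voom, 52 with robust dispersion, 54 without a filter, 49 with a stricter filter, 46 with upper-quartile factors, 43 with library totals alone and 52 with library sizes computed without histone, haemoglobin, mitochondrial and small RNA genes. The share of all tested genes called, 45.1% with the main settings, was 48.5%, 44.7%, 45.1%, 28.8%, 46.9%, 45.3%, 43.7% and 45.0% in these 8 settings, in the same order, and no member changed sign in them. The replicate number as a replicate block gave 62 calls (59 higher, 3 lower), beside 38.7% of all tested genes, and lost none. Same-numbered libraries share only a number: their deviations from the group means correlated at 0.011, -0.209 and 0.193, and 2 of 6 libraries correlated best with their own number. Leaving out 1 library gave 31 to 63 calls, 28 to 61 higher and 2 to 3 lower, fewest when wild type replicate 1 (31) or knockout replicate 3 (33) was left out and most when wild type replicate 3 was (63), beside 31.9% to 40.2% of all tested genes (40.2%, 33.3% and 37.1% in these 3 fits). The log2 ratio of the summed level was 1.67, 1.5 with library totals alone, 1.76 without the most counted member of each type, and 1.41 to 2.28 when 1 library was left out. With the muscle and fat score as a covariate 1 member was called, 1 higher and 0 lower, beside 4.73% of all tested genes. The cause was not tested. Values that turned were Hist2h4, -0.15, at 0.00 without wild type replicate 3 and 0.43 with the muscle and fat score, and Hist3h2bb-ps, -0.35, at 0.66 without wild type replicate 3. Over all 6 such fits Hist2h4 ranged from -0.38 to 0.00 and Hist3h2bb-ps from -0.74 to 0.66. Summing identical proteins was not run, and sets with near-identical coding sequences were summed in its place (46 of 57 called, with Hist2h2aa2 not counted). Depth limits Hist1h1t and Hist1h2ba.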
